A study of Mus musculus with 8 samples.

Results

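The postsynaptic density is the protein mesh under the membrane of an excitatory synapse, and the genes described here encode its scaffolds and the signalling proteins bound to them. The set was a list of 39 mouse genes chosen by name and role, with no threshold on a measured value, but drawn up when earlier results of these data were known. Of these, 38 had a gene symbol in the deposited results and a row in the deposited table, and all 38 passed the filter on low reads, among 10588 genes that passed it in all. Homer3, a Homer scaffold, had no row under its symbol in the deposited results and is not described further. Every gene that passed the filter had a row there.

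In an excitatory synapse, glutamate receptors are held by membrane-associated guanylate kinases such as PSD-95, which bind receptor tails through PDZ domains. These are linked through the Dlgap proteins to Shank, and Shank is linked to Homer and to the actin of the dendritic spine. Small GTPase regulators, kinases and calmodulin-binding proteins sit on this frame and change spine shape and receptor number with activity.

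Poly(A)+ RNA of the right cortex was sequenced from C57BL/6 mice of 2 genotypes, 4 mice each. Bigenic mice carried Camk2a-tTa and deltaNLS-hTDP-43, a human TDP-43 whose nuclear localization signal is defective, so that the RNA-binding protein collects in the cytoplasm. The Camk2a promoter drives the tetracycline activator in forebrain excitatory neurons, and doxycycline holds the hTDP-43 transgene off. Nontransgenic mice carried neither transgene and had the same diet, which was doxycycline until 28 days of age and then 10 days without it. Each group had 3 males. Mice with only the activator were not among the samples, so its effect and that of hTDP-43 cannot be told apart. Mice are numbered here by the order of the columns in the table, bigenic mice first.

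The deposited values are whole numbers scaled per mouse by the authors, called normalized counts here, and they correspond to about 10.6 M to 31.9 M reads on genes per mouse. The transgene transcript stood at 29375 to 41550 normalized counts in bigenic mice and at 5 to 80 in nontransgenic mice. The mouse gene Tardbp stood at 4908 to 5502 against 6116 to 7116. The second bigenic library was the shallowest, lay apart from the other bigenic libraries on the first 2 principal components, and had relatively high values for genes rich in GC. The deviation of its log2 values from the mean of all mice correlated with exon GC content at r = 0.35 across 10297 genes. This correlation was -0.053, -0.085 and 0.083 in the other bigenic libraries, and -0.28, -0.13, -0.15 and -0.016 in the nontransgenic ones. It was thus negative in every nontransgenic library, but the bigenic values of -0.053 and -0.085 lay below the nontransgenic value of -0.016. Apart from the second bigenic library, the genotypes thus overlapped. The mean of all mice includes that library, so the signs in the others are not independent of it. Values of all 38 genes without the second bigenic library are plotted by role, and many of them are given in the text. Every list of cell type markers had genes past the filter on low reads, and only these are counted below. Summed levels of the 11 excitatory neuron markers lay between 55283 and 71106 in bigenic mice and between 87149 and 95264 in nontransgenic mice, with 4 lower, 1 higher and Camk2a, the most abundant, at a log2(fold change) of -0.88. Inhibitory neuron markers had 5 of 11 lower (21437 to 23223 against 25530 to 27890 summed, Gad1 most abundant), astrocyte markers 4 of 11 lower (130520 to 150422 against 158815 to 170053, Slc1a2), and microglia markers 5 of 9 lower (5688 to 7641 against 7782 to 9029, Csf1r). Endothelial markers had 1 of 9 lower (6406 to 7609 against 7119 to 8047, Slc2a1) and oligodendrocyte markers 1 of 11 higher (72760 to 93322 against 71474 to 89922). Choroid plexus markers, of which 5 of 11 were tested, had 4 higher, summing to 14101 to 29169 against 6544 to 8183, with Enpp2 most abundant. The part of these marker shifts in the results below was not tested. In bulk tissue, fewer cells of a type and less RNA per cell cannot be told apart.

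The 2 genotypes were compared on log2(normalized count + 1) with limma, with Benjamini-Hochberg adjustment over all 10588 genes and a threshold of 0.05. All log2(fold changes) below are bigenic minus nontransgenic on this scale, with the standard error of the fit and 4 mice per group. Of the 38 genes, 15 were significantly lower in bigenic mice (39.5%), 5 were significantly higher (13.2%) and 18 were not called. Over all genes tested, 35.9% were called, 15.4% as lower and 20.5% as higher. The median log2(fold change) of the 38 genes was -0.017, with 21 of them negative, and that of all genes was 0.029. In 22 of the 38 genes the values of the 2 groups did not overlap, against 39% of all genes. Of these 22, 16 were lower (16.7% of all genes) and 6 higher (22.3% of all genes). The 15 lower genes kept their call when any one mouse was left out. Of the 5 higher genes, Dlgap2, Dlgap3 and Grip1 did so, and Magi2 and Sipa1l1 did not.

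**Figure D1:**
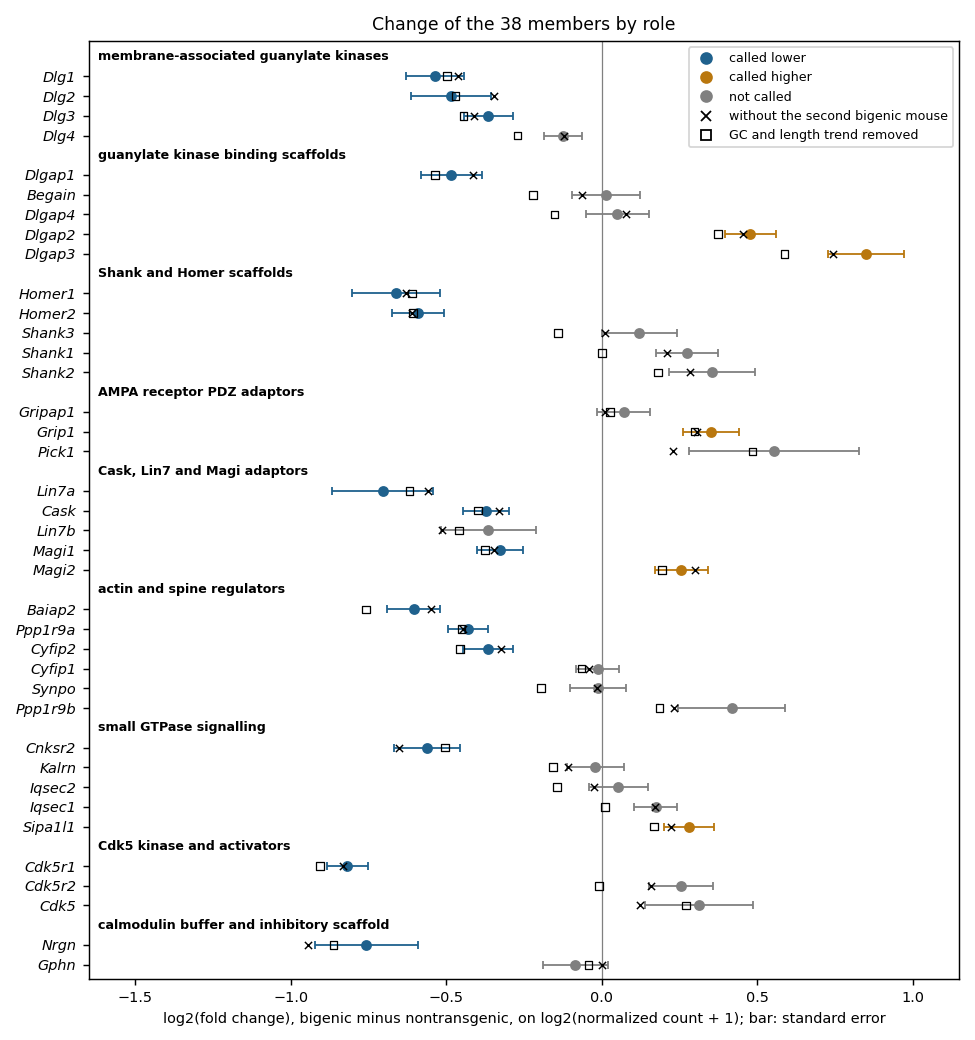
Change of the 38 postsynaptic density genes, grouped by role. The x axis is the log2(fold change), bigenic minus nontransgenic, on log2(normalized count + 1); filled points are the values with all 8 mice and bars their standard errors, crosses are values without the second bigenic mouse, and open squares are values after a trend on GC content and exon length was removed from each mouse. Lower and higher genes stand side by side within the Dlgap, Magi and small GTPase groups, and Dlg1, Dlg2 and Dlg3 are all lower.

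The membrane-associated guanylate kinases are the receptor-binding layer. Dlg1 (SAP97), Dlg2 (PSD-93) and Dlg3 (SAP102) were lower in bigenic mice, while Dlg4 (PSD-95) was only slightly below the controls and was not called. Dlg1 stood at 4089, 3553, 4722 and 4315 normalized counts in bigenic mice and at 6146, 6020, 6307 and 5625 in nontransgenic mice. No value of a bigenic mouse reached the lowest control, and the log2(fold change) was -0.54 ± 0.093 (adjusted p = 0.00202 in limma). Dlg2, which spans 1945041 bases of chromosome 7, gave 9991, 7203, 11017 and 10735 against 14139, 13647, 13882 and 12226. Mouse 2 of the bigenic group was lowest, the groups did not overlap, and the log2(fold change) of -0.49 ± 0.13 (adjusted p = 0.0160 in limma) was -0.35 without that mouse. For Dlg3 the values were 4746, 5048, 4345 and 4248 against 6251, 5578, 5811 and 6015, a log2(fold change) of -0.37 ± 0.079 (adjusted p = 0.00593 in limma). The second bigenic mouse was the highest of its group there, so the fall of Dlg3 was larger without it (-0.41). Dlg4 gave 8369, 8574, 8729 and 8910 against 9309, 9317, 9655 and 9432. The groups did not overlap, but the difference was small (-0.13 ± 0.060, limma adjusted p = 0.129). After removal of the GC and length trend Dlg4 passed the threshold, at -0.27 with a limma adjusted p of 0.0205.

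The Dlgap proteins (SAPAPs or GKAPs) bind the guanylate kinase domain of PSD-95 and its relatives and carry the link to Shank, and Begain binds the same domain. Members of the Dlgap family moved in opposite directions. Dlgap3, which is best known from the striatum and from compulsive grooming in mice that lack it, rose most of the 38 genes. Its normalized counts were 6150, 8947, 6471 and 7478 in bigenic mice and 3543, 3938, 4294 and 4211 in nontransgenic mice. Every bigenic mouse lay above every control, with a log2(fold change) of 0.85 ± 0.12, a fold of 1.80 (adjusted p = 0.000720 in limma). Again the second bigenic mouse was extreme, here highest, and without it the value was 0.74. Removal of the GC and length trend left 0.59 (adjusted p = 9.67e-05 in limma). Dlgap2 stood at 2433, 2821, 2609 and 2903 against 2075, 1949, 1867 and 1828, again without overlap, a log2(fold change) of 0.48 ± 0.081 (adjusted p = 0.00184 in limma). Dlgap1 went the other way, with 7582, 6775, 9174 and 7922 against 11612, 10006, 11459 and 10734. Its highest bigenic value stayed below its lowest control, a log2(fold change) of -0.48 ± 0.098 (adjusted p = 0.00453 in limma). Dlgap4 was not called, with 3724, 4144, 4714 and 5062 against 4326, 3917, 4319 and 4377 (0.050 ± 0.10). Begain ranged from 1414 to 1981 against 1515 to 1804 and was not called with the deposited values. After removal of the GC and length trend Begain was called lower, at -0.22 (adjusted p = 0.0259 in limma).

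Promoter sequences were taken from a RefSeq table on GRCm38.p6, 250 bases before to 50 bases after the start, for the called genes with 1 entry that fell most (Nrgn and Baiap2) or rose (Dlgap3). Entries were found for 31 of the 39 genes, 57 promoters in all. Capitals mark matches on either strand to a TATA box (TATAAA), a cAMP response element (TGACGTCA) or a GC box (GGGCGG), and GC boxes that overlap run together. Over all 32851 promoters in that table these letters were found in 13.6%, 1.79% and 35.7%, and over the 57 promoters in 12.3%, 0% and 59.6%. Median GC content was 63% in the 57 promoters and 52.7% in all of them, which came from 27025 genes, tested here or not. The shares were not adjusted for GC content. The promoter of Dlgap3, at chr4:127172630-127172929 on the plus strand, held no match:
Dlgap3: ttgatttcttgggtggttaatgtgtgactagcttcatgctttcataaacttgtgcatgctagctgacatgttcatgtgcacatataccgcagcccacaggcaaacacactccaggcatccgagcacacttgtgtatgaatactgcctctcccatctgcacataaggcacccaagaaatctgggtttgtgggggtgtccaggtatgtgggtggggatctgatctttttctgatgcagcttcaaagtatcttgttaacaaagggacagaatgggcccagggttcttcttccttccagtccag
Nrgn lies at chr9:37552696-37552995 on the minus strand and holds 1 GC box:
Nrgn: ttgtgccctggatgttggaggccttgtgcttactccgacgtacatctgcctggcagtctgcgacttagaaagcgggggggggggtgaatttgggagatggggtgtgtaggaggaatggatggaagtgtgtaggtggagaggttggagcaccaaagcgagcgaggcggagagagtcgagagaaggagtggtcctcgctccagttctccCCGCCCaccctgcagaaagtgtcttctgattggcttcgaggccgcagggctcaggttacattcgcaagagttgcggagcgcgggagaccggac
Baiap2 lies at chr11:119942842-119943141 on the plus strand and holds 1 TATA box and 5 GC boxes:
Baiap2: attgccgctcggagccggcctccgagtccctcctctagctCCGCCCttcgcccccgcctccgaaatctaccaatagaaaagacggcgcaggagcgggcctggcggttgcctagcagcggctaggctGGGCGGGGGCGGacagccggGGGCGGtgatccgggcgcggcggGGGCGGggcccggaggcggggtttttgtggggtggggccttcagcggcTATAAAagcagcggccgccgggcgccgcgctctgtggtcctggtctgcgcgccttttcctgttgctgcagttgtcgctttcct

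**Figure D2:**
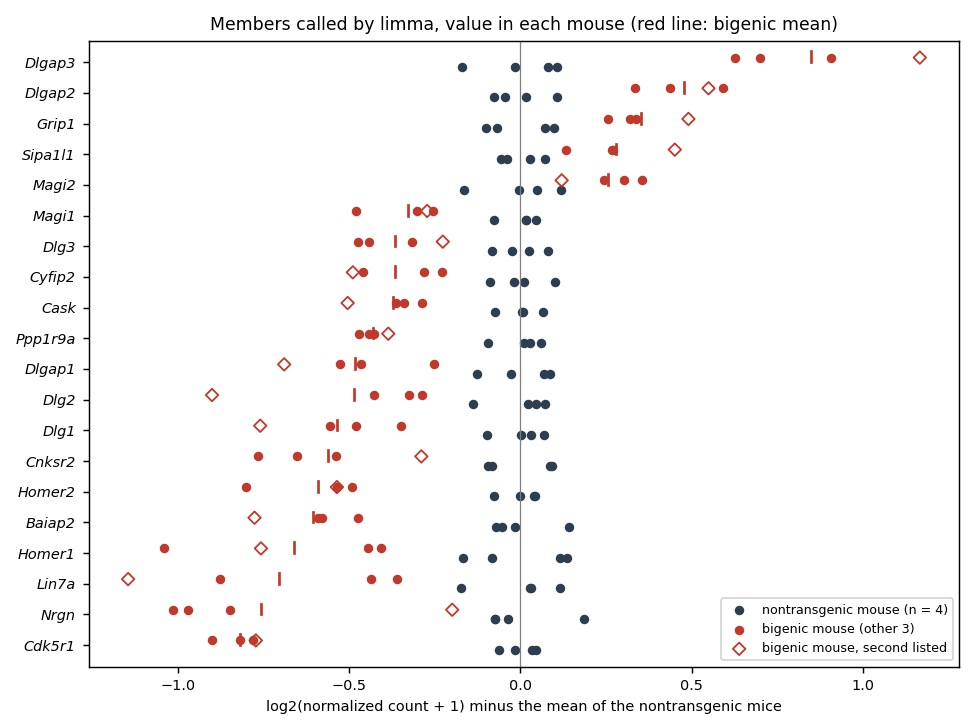
The 20 called genes in each mouse. The x axis is log2(normalized count + 1) minus the mean of the nontransgenic mice; dark points are the 4 nontransgenic mice, red points 3 bigenic mice, open diamonds the second bigenic mouse and red lines the bigenic mean. Bigenic and nontransgenic points do not overlap in any of the 20 genes, and the second bigenic mouse is the most extreme point for Dlgap3, Dlg2 and Lin7a but the least extreme for Nrgn and Cnksr2.

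Shank proteins are the large scaffolds of the deep layer, and Homer proteins join them to metabotropic glutamate receptors and to calcium stores. Homer1 and Homer2 fell, and none of the Shank genes was called in the main fit. Homer1 stood at 3722, 4529, 5781 and 5625 normalized counts in bigenic mice and at 8421, 6816, 8300 and 7229 in nontransgenic mice. The first bigenic mouse was lowest and all bigenic values lay below the controls, a log2(fold change) of -0.66 ± 0.14 (adjusted p = 0.00581 in limma). Counts are summed over the gene, so the long scaffold forms and the short activity-induced form Homer1a were not separated. Homer2 gave 1752, 2105, 2169 and 2106 against 2892, 3142, 3047 and 3138, again without overlap (-0.59 ± 0.084, limma adjusted p = 0.000720). Shank1 stood at 9159, 12330, 10324 and 11520 against 8417, 8724, 8849 and 9669, a log2(fold change) of 0.27 ± 0.098 that missed the threshold (adjusted p = 0.0529 in limma). The lowest bigenic value lay inside the control range. For Shank1 the log2(fold change) was 0.00089 after removal of the GC and length trend. Shank3 gave 2984, 4368, 3171 and 3478 against 2821, 3198, 3336 and 3419, with overlapping groups (0.12 ± 0.12), and its value was 0.0089 without the second bigenic mouse and -0.14 after removal of the trend. Shank2 ranged from 4003 to 5950 against 3633 to 4962 (0.35 ± 0.14, limma adjusted p = 0.0711), and its value was 0.28 without the second bigenic mouse and 0.18 after removal of the trend. In 16 alternative fits, Shank1 was called higher in 4 and Shank2 in 3, for both with array weights and without the first bigenic mouse.

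TDP-43 binds UG repeats in RNA, so runs of at least 6 TG repeats were located on the transcribed strand of the gene models of the mm9 genome. Such a run lay somewhere in 33 of the 38 genes (86.8%), against 73.7% of all 10246 tested genes with a gene model. An exon held one in 7 of the 38 genes (18.4%), against 11% of all. Median genomic span was 104 kb in the 38 genes and 28.4 kb in all. Median exon length was 7.8 kb in the 38 genes and 4.2 kb in all, and these shares were not adjusted for length. The 7 genes with a run in an exon were Homer1 (6 repeats) and Homer2 (17), both lower, and Dlg4 (16), Dlgap4 (9), Gripap1 (7), Pick1 (18) and Shank3 (7), none of them called. The run of Homer1 is at chr13:94128137-94128148 on the plus strand, that of Homer2 at chr7:88750862-88750895 on the minus strand, that of Dlgap4 at chr2:156574468-156574485 and that of Shank3 at chr15:89389654-89389667, both on the plus strand. In the windows of 30 bases below, capitals mark the TG repeats, and the 17 repeats of Homer2 run past both ends of its window. They are shown because they set the 2 genes that fell beside 2 of those not called, and the long runs of Dlg4 and Pick1 are not shown:
Homer1: cagtatataTGTGTGTGTGTGtatatatat
Homer2: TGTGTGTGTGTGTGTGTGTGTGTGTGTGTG
Dlgap4: tgtcctTGTGTGTGTGTGTGTGTGcgcgcg
Shank3: tcctgcccTGTGTGTGTGTGTGcgccacat
The longest gene, Dlg2, held 149 runs and was lower. Magi2, with 134, was higher, while Cdk5r1 and Nrgn, which fell most, held none. The 15 lower genes held a median of 8.0 runs per 100 kb, the 5 higher ones 9.07, the 18 others 8.26 and all genes 7.72. A run of these letters is a description of the gene and not a measured binding site.

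Grip1, Gripap1 and Pick1 belong to the adaptors that carry AMPA receptors to and from the synapse. Grip1, whose PDZ domains bind AMPA receptor subunits, rose in bigenic mice. It stood at 504, 560, 497 and 476 normalized counts against 426, 419, 380 and 371, without overlap, a log2(fold change) of 0.35 ± 0.089 (adjusted p = 0.0132 in limma). Gripap1, which binds GRIP1, ranged from 2579 to 3100 against 2422 to 2819 and was not called (0.070 ± 0.085, and 0.012 without the second bigenic mouse). Pick1, which takes part in AMPA receptor endocytosis, ranged from 638 to 1719 against 539 to 704. The value of 1719 was that of the second bigenic mouse, and the log2(fold change) was 0.55 ± 0.27 with it and 0.23 without it, not called in either case. Reads of Pick1 are also uncertain because 6.68% of its exon bases overlap the pseudogene Gm17209 on the same strand, and 95.6% of the 50-base windows of its exons are unique in mm9.

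Cask, the Lin7 proteins and the Magi proteins are further PDZ scaffolds. Cask and the Lin7 proteins form a complex that carries NMDA receptors, and Magi proteins are inverted guanylate kinases that hold receptors and adhesion proteins. Lin7a and Cask fell, and the Magi pair split. Lin7a stood at 1359, 1127, 1942 and 1844 normalized counts in bigenic mice against 2701, 2544, 2551 and 2213. The bigenic mice varied more among themselves than the controls but stayed below them, a log2(fold change) of -0.71 ± 0.16 (adjusted p = 0.00848 in limma), or -0.56 without the second mouse. Cask gave 2074, 1880, 2186 and 2108 against 2791, 2674, 2680 and 2534 (-0.37 ± 0.074, limma adjusted p = 0.00387). Lin7b gave 435, 606, 364 and 408 against 532, 524, 589 and 657. Only the second bigenic mouse lay inside the control range, and Lin7b was not called with it (-0.36 ± 0.15, limma adjusted p = 0.0858) but was lower without it (-0.51, limma adjusted p = 0.00179). In Lin7b, 3.96% of the exon bases overlap Mtag2 on the opposite strand. Magi1 stood at 2190, 2529, 2476 and 2561 against 3151, 3092, 2897 and 3088, without overlap (-0.33 ± 0.075, limma adjusted p = 0.00806). Magi2 stood at 4073, 3737, 4242 and 4398 against 3557, 3069, 3730 and 3431. The lowest bigenic value lay just above the highest control, and the call for Magi2 (0.26 ± 0.085, limma adjusted p = 0.0399) held in only 2 of the 8 fits that left out a mouse and was lost after removal of the GC and length trend (0.19, limma adjusted p = 0.119).

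Of the 6 actin and spine regulators, Baiap2, Cyfip2 and Ppp1r9a fell and the other 3 were not called, beside 15.4% lower and 20.5% higher over all genes, which with so few genes is a description only. Baiap2 (IRSp53), which bends membranes and links Rac and Cdc42 to actin, stood at 2247, 1975, 2266 and 2435 normalized counts in bigenic mice and 3260, 3349, 3218 and 3737 in nontransgenic mice. The groups were well apart, with a log2(fold change) of -0.61 ± 0.086 (adjusted p = 0.000720 in limma), and its fall was larger after removal of the GC and length trend (-0.76). Cyfip2, a subunit of the WAVE actin regulatory complex, stood at 19807, 19405, 22394 and 23230 against 29197, 25604, 27417 and 26903. No bigenic value reached the controls (-0.37 ± 0.081, limma adjusted p = 0.00672). Reads of Cyfip2 may include some of C030019I05Rik, which covers 10.8% of its exon bases on the opposite strand. Its relative Cyfip1 gave 2317, 2418, 2190 and 2186 against 2202, 2349, 2324 and 2318, with overlapping groups and a log2(fold change) of -0.014 ± 0.068. Ppp1r9a (neurabin), which brings protein phosphatase 1 to actin, fell from 14012, 12590, 13542 and 13712 in the controls to 10006, 10293, 9900 and 9703. The bigenic values lay close together, and the log2(fold change) was -0.43 ± 0.064 (adjusted p = 0.000892 in limma). The related Ppp1r9b (spinophilin) was not called, at 18064, 29807, 17132 and 18539 against 13633, 14179, 15126 and 18389. Its log2(fold change) was 0.42 ± 0.17 with the second bigenic mouse, by far the highest, and 0.23 without it (adjusted p = 0.0821 and 0.0628 in limma), and 0.19 after removal of the GC and length trend. Synpo (synaptopodin), the protein of the spine apparatus, ranged from 1311 to 1480 against 1296 to 1621 and was not called (-0.012 ± 0.090).

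Among the regulators of small GTPases, Cnksr2 fell and Sipa1l1 rose. Cnksr2 (MAGUIN), a Ras pathway scaffold that binds PSD-95, stood at 5495, 6535, 4697 and 5077 normalized counts against 8474, 7484, 7539 and 8517. In that gene the second bigenic mouse was closest to the controls, so the log2(fold change) of -0.56 ± 0.11 (adjusted p = 0.00307 in limma) was -0.65 without it. Sipa1l1 (SPAR), a Rap GTPase-activating protein of spines, stood at 14715, 18354, 16154 and 16191 against 13064, 12899, 14104 and 13681. All bigenic values were above the controls (0.28 ± 0.079, limma adjusted p = 0.0212), but the call for Sipa1l1 was lost without the first or the second nontransgenic mouse, with a limma adjusted p of at most 0.0657. Iqsec1, an exchange factor for Arf6, gave 7122, 7666, 7705 and 8027 against 6852, 6316, 6987 and 6894. The groups did not overlap, yet the log2(fold change) of 0.17 ± 0.069 was not called (adjusted p = 0.0741 in limma). Iqsec1 was called higher without the second bigenic mouse (0.17, limma adjusted p = 0.0467) and under array weights. Its value was 0.011 after removal of the GC and length trend. Iqsec2 gave 3872, 5172, 4206 and 4472 against 4166, 3960, 4426 and 4454, with overlapping groups (0.053 ± 0.095). Kalrn, a Rac exchange factor that enlarges spines, ranged from 12771 to 16462 against 13398 to 14240 (-0.021 ± 0.090, and -0.11 without the second bigenic mouse).

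Cdk5 is a neuronal kinase that acts only with an activator, p35 from Cdk5r1 or p39 from Cdk5r2, and that phosphorylates PSD-95 among other synaptic proteins. With all 8 mice, Cdk5r1 fell most of the 38 genes. It stood at 5084, 5559, 5381 and 5530 normalized counts in bigenic mice and at 9794, 9090, 9404 and 9729 in nontransgenic mice. Both groups were tight and far apart, with a log2(fold change) of -0.82 ± 0.065, which is 43.3% lower (adjusted p = 3.47e-05 in limma). Cdk5r1 is a gene of 1 exon at chr11:80290548-80294681 on the plus strand of mm9. Cdk5r2, also of 1 exon, at chr1:74901508-74904005 on the plus strand, gave 4093, 5416, 4021 and 4388 against 3424, 3745, 4053 and 3717. The groups overlapped, the second bigenic mouse was highest, and Cdk5r2 was not called (0.25 ± 0.10, limma adjusted p = 0.0810). Its log2(fold change) was 0.16 without that mouse and -0.0087 after removal of the GC and length trend. Cdk5 itself ranged from 1915 to 3441 against 1691 to 2117, with the highest value again in the second bigenic mouse (0.31 ± 0.17, limma adjusted p = 0.183, and 0.12 without that mouse).

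Nrgn (neurogranin) binds calmodulin in the dendritic spine of excitatory neurons and releases it when calcium rises. It stood at 3962, 6967, 4084 and 4442 normalized counts in bigenic mice and at 7596, 7802, 9101 and 7596 in nontransgenic mice. The second bigenic mouse lay just under the controls and the other 3 far below them. The log2(fold change) of Nrgn was -0.76 ± 0.17 with all mice (adjusted p = 0.00636 in limma) and -0.94 without that mouse (adjusted p = 7.63e-06 in limma). Gphn (gephyrin), the scaffold of inhibitory synapses, ranged from 1226 to 1640 against 1436 to 1660 and was not called (-0.085 ± 0.10).

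The balance between close relatives was compared as a log2 ratio within each mouse, which does not depend on how the libraries were scaled. A ratio can still carry the GC trend, and the ratios were not recomputed after its removal. Of 12 pairs, 7 had ratios that did not overlap between the groups, each with an exact two-sided permutation p of 0.0286, the smallest that 70 arrangements of the mice allow, with no adjustment over the pairs. Among single genes, 39% of all those tested did not overlap, and the share among other pairs of genes was not computed, so the count of 7 is a description. The ratio of Cdk5r1 to Cdk5r2 had the largest shift, with a mean of 0.28 ± 0.17 in bigenic mice and 1.35 ± 0.13 in nontransgenic mice (SD, n = 4), a difference of -1.07. The ratio of Dlgap1 to Dlgap2 was 1.54 ± 0.24 against 2.50 ± 0.11, a difference of -0.96, since one fell and the other rose. For Dlgap3 over Dlgap4 the means were 0.71 ± 0.29 and -0.086 ± 0.14, a difference of 0.80. Ppp1r9a over Ppp1r9b differed by -0.85, and by -0.68 without the second bigenic mouse. Magi1 over Magi2 differed by -0.58, Dlg4 over Dlg1 by 0.41 and Cyfip1 over Cyfip2 by 0.35. In all of these 7 pairs but Cyfip1 over Cyfip2, the ratio shifted toward the relative with more GC in its exons. With the GC and length trend removed, log2(fold changes) were -0.91 for Cdk5r1, -0.0087 for Cdk5r2, -0.27 for Dlg4 and -0.50 for Dlg1. In that fit, they were -0.54 for Dlgap1, 0.37 for Dlgap2, 0.59 for Dlgap3 and -0.15 for Dlgap4. The values were -0.38 for Magi1, 0.19 for Magi2, -0.45 for Ppp1r9a and 0.19 for Ppp1r9b. Those of Cyfip1 and Cyfip2 were -0.065 and -0.46. The part of GC content in the ratios was not tested. The other 5 pairs overlapped between the groups. Their differences were 0.12 for Iqsec1 over Iqsec2 (exact permutation p = 0.143), 0.15 for Shank1 over Shank3 (p = 0.0857) and -0.34 for Lin7a over Lin7b (p = 0.457). They were -0.12 for Dlg2 over Dlg3 (exact permutation p = 0.743) and -0.071 for Homer1 over Homer2 (p = 0.514).

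**Figure D3:**
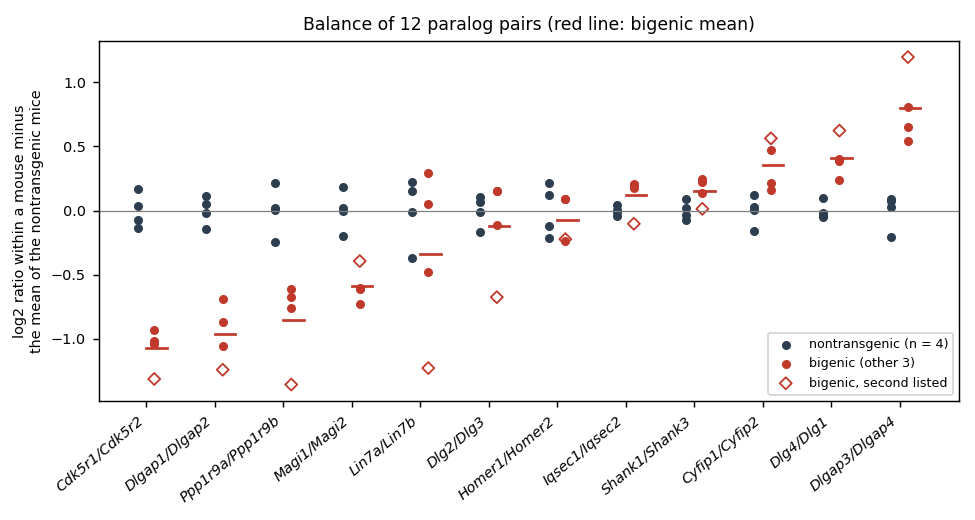
Balance of 12 pairs of related genes in each mouse. The y axis is the log2 ratio of the 2 genes within a mouse minus the mean of the nontransgenic mice; dark points are the 4 nontransgenic mice, red points 3 bigenic mice, open diamonds the second bigenic mouse and red lines the bigenic mean. Pairs at the left have bigenic means near -1 and pairs at the right near 0.4 to 0.8, and the second bigenic mouse lies outside the other 3 in every pair but Homer1 over Homer2.

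The base composition and length of the genes, which the list did not use, were set beside their change. Exon GC content had a median of 45.6% in the 15 lower genes, 52.8% in the 5 higher genes, 57.1% in the 18 others and 49.6% in all genes tested with a gene model. Across the 38 genes, log2(fold change) and GC content had a Pearson correlation of 0.54 and a Spearman rank correlation of 0.48, against 0.19 and 0.22 across all 10246 genes. The points share the 8 libraries, and genes are not independent replicates. Of the 15 genes above 55% GC, 2 were lower (Nrgn and Baiap2) and 1 higher (Dlgap3). Of the 23 at or below 55%, 13 were lower and 4 higher. Across all genes the shares were 10.1% lower and 28.1% higher above 55%, and 17.0% lower and 18.4% higher below it. When a quadratic trend on GC content and exon length was removed from each mouse, an alternative added after the data were seen, 18 of the 38 genes were lower and 4 higher, with a median of -0.18. In the same fit 1889 of 10297 genes were lower and 2087 higher. All 15 lower genes were among these 18, and the 3 others were Dlg4, Begain and Lin7b. The genomic span had a median of 153 kb in lower genes, 633 kb in higher genes, 54.4 kb in the others and 28.4 kb in all genes.

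**Figure D4:**
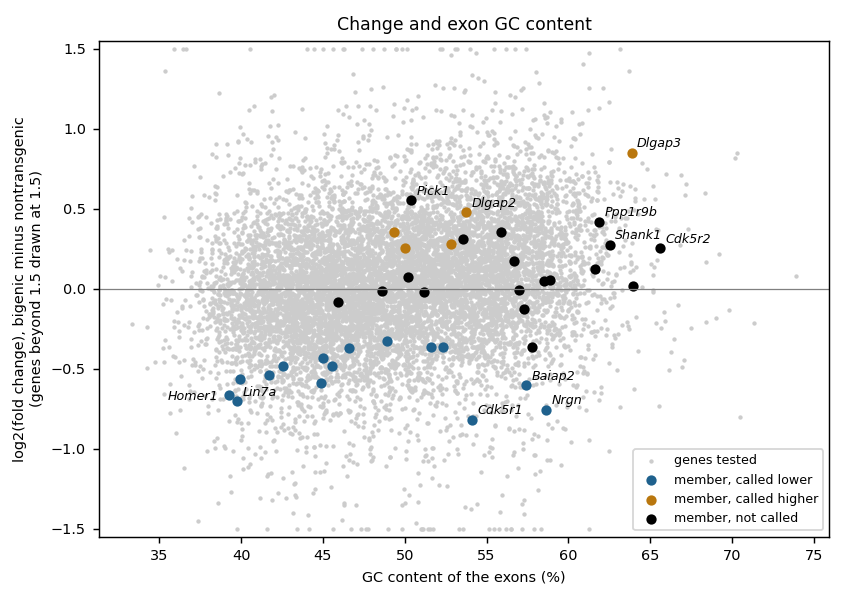
Change against base composition. The x axis is the GC content of the exons in percent and the y axis the log2(fold change), bigenic minus nontransgenic; grey points are all genes tested with a gene model, blue, orange and black points the postsynaptic density genes called lower, called higher and not called, and genes beyond 1.5 are drawn at 1.5. Of the 15 blue points 13 lie at or below 55% GC, with Nrgn and Baiap2 above it, and Dlgap3 is the highest of the colored points.

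A separate list of 95 other postsynaptic genes, of which 87 were tested, was used for comparison. It had 24 lower (27.6%) and 11 higher (12.6%), beside 15.4% and 20.5% of all genes, with a median log2(fold change) of -0.024. After removal of the GC and length trend 31 were lower and 9 higher. Rasgrf2 and Pak1 were among the 3 lower ones with the smallest adjusted p. Rasgrf2, a calcium-dependent Ras exchange factor, stood at 2194, 2163, 2515 and 2538 normalized counts against 6191, 5539, 5931 and 6344 (-1.35 ± 0.083, limma adjusted p = 1.28e-05). Pak1, a kinase downstream of Rac and Cdc42, had a log2(fold change) of -1.11 ± 0.076 (adjusted p = 1.98e-05 in limma). The higher ones with the smallest adjusted p were Git2 (0.52 ± 0.11), Rasgrf1 (0.39 ± 0.081) and Actn2 (0.80 ± 0.18), with limma adjusted p of 0.00468, 0.00498 and 0.00721. Git2 is an Arf GTPase-activating protein, Rasgrf1 the relative of Rasgrf2, and Actn2 an alpha-actinin of spines.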

How the data were processed

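Cortical poly(A)+ RNA of 8 mice, 4 per genotype, was sequenced. Per the labels and the study's methods, the authors trimmed reads with cutadapt, mapped them to mm9 with Bowtie 0.12.7, kept uniquely mapping reads, counted reads per exon with bedtools and summed exons into genes. Whether counting used strand was not given in the sources used here. The deposited values are a score, namely counts scaled in each mouse and then rounded, by a step that the sources do not describe. A table of the authors' DESeq2 comparison (log2 fold changes, p-values and adjusted p-values computed by the authors from their counts) was used for gene symbols only. Column names give the group but no replicate number.

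The filter kept genes that reached 10 RPM, relative to the column total, in 1 mouse or more (10588 of 28662 transcripts), transformed as log2(value + 1) and compared in limma 3.58.1 by lmFit and eBayes with a trend (R 4.3.3), with Benjamini-Hochberg adjustment at 0.05. Column totals were 20.1 M to 22.0 M. What 1 read is worth was estimated from the steps in each column, and 3 reads correspond to 1.94 to 6.20 normalized counts. The fit was first run on values with known changes. No 2 columns were identical, and the labels do not say more of the mice, so p-values measure the spread between these samples. For ratios, an exact permutation test over the mice was used (two-sided). Positions and GC content come from GENCODE vM1 on NCBIM37 (mm9), and 97.3% of the genes tested had both GC content and length. Python 3.11.15, numpy 2.4.6, pandas 2.3.3, scipy 1.17.1 and matplotlib 3.10.9 were used.

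The genes and lists were chosen with earlier results of these data known. Values in each mouse are given for called genes and for both genes of each pair, and the 3 other postsynaptic genes with the smallest adjusted p are named in each direction, except that some genes are not reported here. Alternatives were pseudocounts of 10 and 0.1, no filter, a filter in every mouse, equal totals, quantile normalization, array weights, a threshold of 0.01, each mouse left out, and removal of a trend on GC content and length.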

Additional observations from a re-analysis of the deposited data

Results flagged for a closer look

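Of 100 groups of 4 values, 76 of them for single genes and the rest for ratios, 6 had a mouse whose gap to its nearest neighbour, as a share of the range, exceeded Dixon's critical value. Chance gives about 1 in 20. The second bigenic mouse was the one flagged in 3 of the 6. On the scale log2(normalized count + 1), it had the highest bigenic value of Ppp1r9b (14.86, or 29807 normalized counts), the highest bigenic value of Kalrn (14.01, or 16462) and the lowest bigenic log2 ratio of Iqsec1 to Iqsec2 (0.57). The first bigenic mouse had the lowest bigenic Homer2 (10.78, or 1752). Among nontransgenic mice, the second had the lowest Dlgap4 (11.94, or 3917) and the third the highest Nrgn (13.15, or 9101). The call for Nrgn and the call for Homer2 held without these mice, and the other 4 concern genes or ratios that were not called. The cause was not tested.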

How the results depend on the processing

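With each mouse left out in turn, 15 to 16 of the 38 genes were lower and 3 to 6 higher, and of the other postsynaptic genes 22 to 28 were lower and 5 to 13 higher. Over all genes, 1113 to 2126 were then lower and 1510 to 2656 higher. With limma's array weights, which gave the second bigenic mouse a weight of 0.084, 11 of the 38 genes, 22 of the other postsynaptic genes and 3611 of all genes were higher, and 17, 31 and 2844 were lower. Of the 38 genes, those gained as higher under these weights were Dlgap4, Shank1, Shank2, Ppp1r9b, Iqsec1 and Cdk5r2. Dlg4 and Lin7b were gained as lower. At an adjusted p below 0.01, 2 of the 38 genes, 4 of the other postsynaptic genes and 1195 of all genes were higher, and 14, 17 and 862 were lower. Dlg2 (-0.43, adjusted p = 0.0618 in limma), Cyfip2 (-0.23, 0.0575) and Magi2 (0.24, 0.0609) lost their call under quantile normalization, and Magi2 also with no filter on low values (0.26, 0.0580). After removal of the GC and length trend the median of the 38 genes was -0.18. Of 608 values for single genes under the alternatives, 22 changed sign, in 9 genes that were not called, and 0 in called genes. After removal of the trend these were Dlgap4 (-0.15), Begain (-0.22), Shank3 (-0.14), Iqsec2 (-0.14) and Cdk5r2 (-0.0087). Under array weights they were Synpo (0.049) and Gphn (0.035), and under quantile normalization Begain (-0.054) and Kalrn (0.025). With a mouse left out, Dlgap4 ranged from -0.019 to 0.13, Begain from -0.063 to 0.099, Cyfip1 from -0.043 to 0.0056, Synpo from -0.046 to 0.063, Kalrn from -0.11 to 0.014, Iqsec2 from -0.024 to 0.12 and Gphn from -0.14 to 0.00026. The ratio of Dlg2 to Dlg3 ranged from -0.21 to 0.064, turning positive without the second bigenic mouse, and that of Homer1 to Homer2 from -0.14 to 0.00024. The cause was not tested. No paired analysis was possible because the columns carry no replicate number that matches the labels. Count tests (edgeR, planned only in case of raw counts, and DESeq2) were not run, since the values are not raw counts. A gene that was not called may have changed by less than these 8 libraries can show.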

Other observations

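The WAVE complex, in which Cyfip proteins sit with Abi, Nckap and Wasf subunits and drive branched actin growth, was looked at after the values of Cyfip2 were seen. Abi2 stood at 3549, 3210, 3666 and 3420 normalized counts in bigenic mice and at 5744, 5371, 5362 and 5070 in nontransgenic mice, a log2(fold change) of -0.64 ± 0.073 (adjusted p = 0.000225 in limma). Wasf1 fell by 0.69 on the log2 scale (4759, 4823, 4214 and 4057 against 7546, 6834, 7242 and 7213, adjusted p = 0.000225 in limma). Nckap1 and Abi1 were lower as well, with log2(fold changes) of -0.58 ± 0.085 and -0.58 ± 0.13 and adjusted p in limma of 0.000808 and 0.00692. Wasf3, with 1546, 2378, 1377 and 1454 against 1311, 1395, 1285 and 1504, was not called (0.26 ± 0.16). These genes were picked with their values known, so these values are a description.

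The third gene of each of 2 families was also looked at after the values of the others were seen. Lin7c, the relative of Lin7a and Lin7b, stood at 1844, 1342, 1774 and 1752 against 2380, 2325, 2548 and 2211 (-0.50 ± 0.11, limma adjusted p = 0.00551). Magi3 stood at 2178, 2078, 2179 and 2188 against 2763, 2366, 2471 and 2642 (-0.25 ± 0.073, limma adjusted p = 0.0253), the direction of Magi1.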
